A study of Mus musculus with 8 samples.

Results

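SMAD4 binding around Hes1, Hey1, Hey2 and Heyl was read from ChIP-seq peak lists of MS1 cells, an immortalised mouse endothelial line from pancreatic islets. All peaks whose summit, the position of highest coverage, lay inside or within 100 kb of one of these 4 gene bodies (RefSeq, mm10) were taken. They numbered 11 of 4333 peaks after BMP9/10 and 5 of 1133 peaks without added ligand. Hes1 held 10 of the 11 stimulated peaks and all 5 unstimulated peaks, Hey1 held 1 stimulated and 0 unstimulated peaks, and Hey2 and Heyl held 0 in each list. The loci were chosen by called peaks of these same lists, so the presence and number of peaks are given as a description and were not tested.

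The cells were serum starved for 24 h in both conditions and then received recombinant BMP9/10 at 1 ng/mL or fresh medium. Each condition had 2 SMAD4 immunoprecipitation (IP) and 2 input libraries, 8 in all. In the titles of both stimulated IP libraries the letters KD also appear, unexplained by the labels, so stimulated values go by the label of stimulated cells alone. The authors merged the libraries of a condition before peak calling, and no value below has a replicate error. IP tags after filtering numbered 41044888 in the stimulated and 52971023 in the unstimulated list. Peak lists hold no expression, so the endothelial label could not be checked at the RNA level. Of 5 endothelial genes (Cdh5, Pecam1, Kdr, Tek and Eng), 5 had a stimulated and 4 an unstimulated peak within 100 kb, as did 36.5% and 13.1% of all protein-coding genes, which does not check the label either.

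Hes1, Hey1, Hey2 and Heyl encode basic helix-loop-helix (bHLH) repressors of the Hes and Hey families. They are the classical direct targets of Notch signalling: the cleaved Notch receptor joins the DNA-binding protein RBPJ and the coactivators of the Mastermind family, and the repressors made in response bind E-box or N-box DNA and recruit corepressors, for Hes1 those of the Groucho (TLE) family. In endothelium BMP9 and BMP10 signal through the receptor ALK1 to SMAD1 and SMAD5, which enter the nucleus with SMAD4, and genes of both families are known to respond to these ligands as well as to Notch. Hey1 and Hey2 act together in arterial and cardiac development of the mouse.

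No genome sequence was used here, and the only stretch of reference sequence that overlaps a peak of these loci is the tabulated promoter of 4632428C04Rik, a long non-coding RNA gene 43.9 kb below Hes1. It is shown because it reaches into the strongest peak of the Hes1 cluster (chr16:30008615-30009272). The window of 300 bases (RefSeq, GRCm38.p6, chr16:30008417-30008716, plus strand) runs from 250 bases before the start of the gene to 50 after it, and capitals mark the 102 bases inside the stimulated peak. The summit of that peak lay 457 bases beyond the end of the window.
4632428C04Rik promoter: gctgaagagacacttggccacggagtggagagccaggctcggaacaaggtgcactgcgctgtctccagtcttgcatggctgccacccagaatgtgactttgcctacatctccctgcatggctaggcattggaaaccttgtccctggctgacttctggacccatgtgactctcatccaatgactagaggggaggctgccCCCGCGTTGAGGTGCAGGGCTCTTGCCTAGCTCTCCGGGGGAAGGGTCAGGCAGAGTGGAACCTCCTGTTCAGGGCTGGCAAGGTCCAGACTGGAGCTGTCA
The promoter of Hey2 (chr10:30842734-30843033, minus strand) is the only tabulated promoter of the 4 genes. It is shown as that of a member with no SMAD4 peak, with capitals marking TGGGAA, the core bound by RBPJ, on either strand.
Hey2 promoter: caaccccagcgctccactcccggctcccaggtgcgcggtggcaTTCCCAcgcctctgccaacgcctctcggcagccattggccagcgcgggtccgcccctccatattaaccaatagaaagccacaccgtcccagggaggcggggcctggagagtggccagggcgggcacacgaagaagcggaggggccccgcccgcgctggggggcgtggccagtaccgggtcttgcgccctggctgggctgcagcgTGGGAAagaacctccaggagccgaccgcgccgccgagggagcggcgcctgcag

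Both strands of these windows were searched for 7 short motifs: CAGAC (a SMAD element), GGCGCC and GGAGCC (GC-rich SMAD elements), TGGGAA (RBPJ), CACGTG and CACNAG (E-box and N-box) and TGANTCA (AP-1). The 4632428C04Rik window held 1 CAGAC, which lay inside the stimulated peak, and none of the other 6. CAGAC occurs in 49.6% of the 32851 tabulated promoters of the same length. The Hey2 window held 2 TGGGAA (in 25.6% of promoters), 2 GGAGCC (30.8%), 1 GGCGCC (11.9%) and none of the other 4 (CACGTG in 7.15%, CACNAG in 42.5% and TGANTCA in 7.81% of promoters). The Hey2 window was 72.0% G and C and the 4632428C04Rik window 59.3%, against a median of 52.7% over all promoters. The matches describe letters in these windows only, and no peak was called at Hey2 in either list.

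Hes1 carried a cluster of SMAD4 peaks that reached from below the gene body to above it (chr16:30065357-30067796, a gene body of 2440 bp). After BMP9/10 there were 10 peaks, 6 at lower coordinates than the gene body, 1 inside it and 3 at higher coordinates, over a span of 61.7 kb. Without added ligand there were 5 peaks, all at lower coordinates, over 55.5 kb. By general knowledge of the locus Hes1 is transcribed towards higher coordinates, which places the lower side upstream, but the gene table gives no strand. For all 15 peaks Hes1 was the nearest protein-coding gene, and no other protein-coding gene reached into its window. Among all annotated genes, including non-coding ones, Hes1 was the nearest for 5 stimulated and 3 unstimulated peaks.

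**Figure D1:**
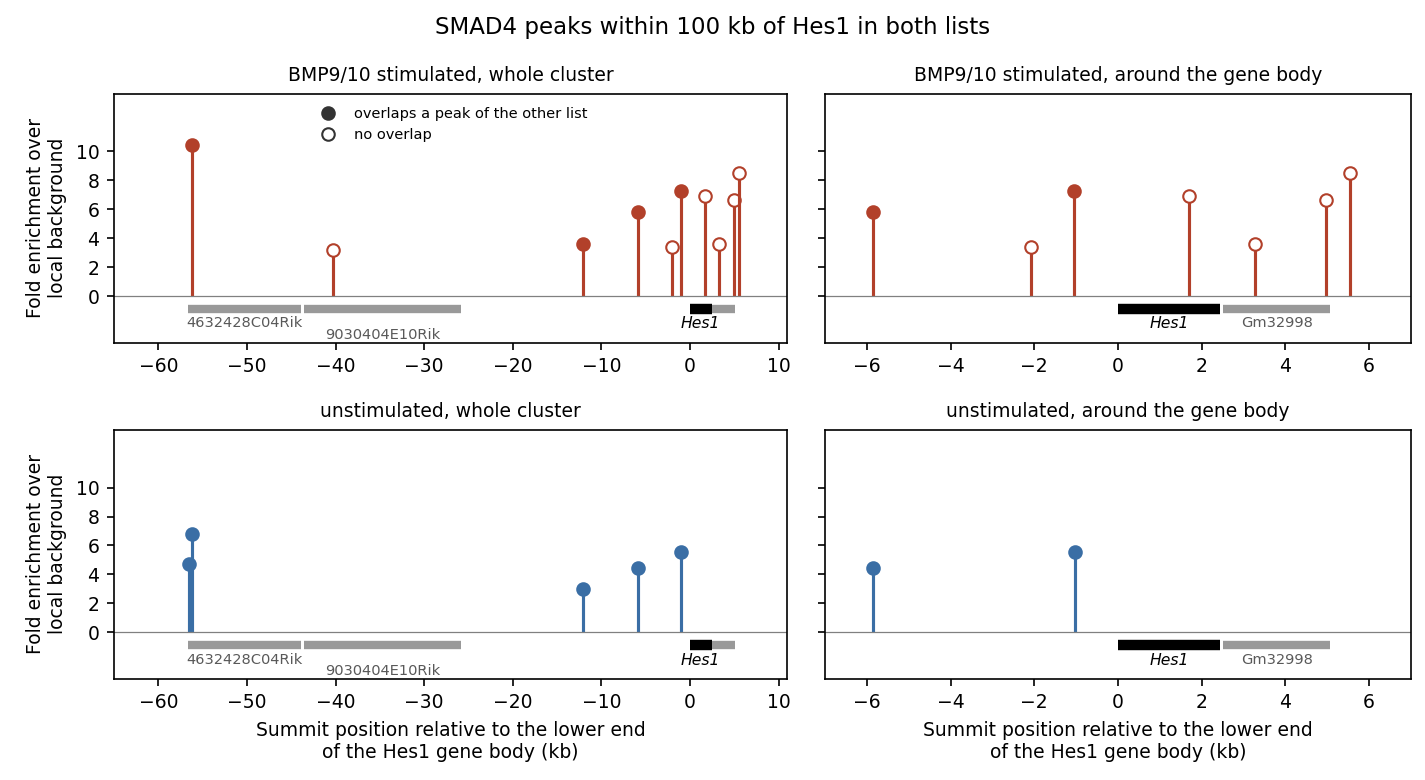
Fold enrichment of IP over local background (vertical axis) of each SMAD4 peak against the position of its summit in kb from the lower end of the Hes1 gene body, for the whole cluster (left) and around the gene body (right), with BMP9/10 above and unstimulated below. Filled points overlap a peak of the other list, the black bar is Hes1 and grey bars are non-coding genes (in the left panels the one directly above Hes1 is Gm32998); the peaks inside and above Hes1 appear in the stimulated list only.

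The strongest peak of the cluster lay 56.2 kb below Hes1, just inside 4632428C04Rik. After BMP9/10 it was 1 peak of 658 bp with a pileup, the number of extended IP tags over the summit, of 44 and a fold enrichment over local background of 10.5, which ranked it 63 of 4333. Without added ligand the same stretch was called as 2 peaks, 173 bases apart. The stronger of them (chr16:30009064-30009260) had a pileup of 29 and a fold enrichment of 6.82, rank 65 of 1133. The weaker one (chr16:30008755-30008890) had a pileup of 24 and a fold enrichment of 4.72. The stronger unstimulated summit and the stimulated summit were 6 bp apart, so both lists placed the highest coverage at nearly the same position.

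Next towards the gene came a stimulated peak 40.3 kb below Hes1, inside the non-coding gene 9030404E10Rik (chr16:30024780-30025048). Its pileup was 28 and its fold enrichment 3.22, lower than all but 11.9% of the stimulated list, over a local background of 8.0 tags. It had no unstimulated counterpart. A peak 12.0 kb below Hes1 was called in both lists, in no annotated gene (stimulated chr16:30053271-30053495, unstimulated chr16:30053207-30053371). It had a fold enrichment of 3.60 after BMP9/10 and of 3.0 without ligand, over local backgrounds of 9.0 and 8.0 tags. These 2 sites had the highest local backgrounds of the cluster, 0.195 and 0.219 per 1000000 IP tags in the stimulated list, against 0.0672 to 0.122 at its 8 other peaks, and the part of the background in their low fold enrichment was not tested.

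Within 6 kb of the gene body the stimulated list had 7 peaks and the unstimulated list 2. Below the gene, both lists had a peak at 5.86 kb (stimulated chr16:30059426-30059735, fold enrichment 5.83; unstimulated chr16:30059431-30059538, 4.46) and one about 1 kb away (stimulated chr16:30063956-30064482, fold enrichment 7.29; unstimulated chr16:30064091-30064396, 5.57). Their summits differed between the lists by 9 and 38 bp. One more peak on this side, 2.08 kb from the gene body (chr16:30063108-30063287, pileup 16, fold enrichment 3.40), was called after BMP9/10 only and was the weakest by q of the cluster, with a −log10 q of 2.44 against the authors' limit of 2.

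The 4 peaks inside and above Hes1 had no unstimulated counterpart. One lay inside the gene body, 0.747 kb from its upper end (chr16:30066879-30067123), with a pileup of 28 and a fold enrichment of 6.90. A narrow peak of 103 bp followed at 0.849 kb above the gene (chr16:30068570-30068672, pileup 15, fold enrichment 3.64) and another of 106 bp at 2.53 kb (chr16:30070290-30070395, pileup 24, fold enrichment 6.65), both inside the non-coding gene Gm32998, which begins 0.067 kb above Hes1. The last, at 3.12 kb (chr16:30070604-30071124, 521 bp), had a pileup of 33 and a fold enrichment of 8.50, rank 179 of 4333 and second in the cluster. Its summit was 586 bp from that of the peak at 2.53 kb. Whether such neighbours are separate binding sites was not tested.

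Set beside the whole lists, the overlap of the conditions at Hes1 read as follows. All 5 unstimulated peaks overlapped a stimulated one, as did 95.9% of all unstimulated peaks. Of the 11 stimulated peaks of the 4 loci 4 overlapped an unstimulated peak, all of them at Hes1 and all below it, and 24.9% of all stimulated peaks did so. The 4 shared stimulated peaks had fold enrichments from 3.60 to 10.5 and widths from 225 to 658 bp. The 6 others at Hes1 had fold enrichments from 3.22 to 8.50 and widths from 103 to 521 bp, so the ranges overlapped. In fold enrichment 6 of the 10 stimulated peaks were above the median of their list (4.56), and 4 of the 5 unstimulated peaks were above theirs (4.0).

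To compare the conditions at the shared sites, pileups were divided by the IP tags of their list and given per 1000000 IP tags. At 56.2 kb the pileup was 1.07 after BMP9/10 and 0.547 without it, a ratio of 1.96 (95% counting interval 1.20 to 3.25). At 12.0 kb it was 0.853 after BMP9/10 and 0.491 without it, a ratio of 1.74 (1.02 to 3.01). Both intervals lay above 1. At 5.86 kb the values were 0.828 and 0.604 for stimulated and unstimulated cells, with a ratio of 1.37 (0.821 to 2.30). The site about 1 kb below Hes1 had 0.755 after BMP9/10 and 0.585 without it, with a ratio of 1.29 (0.759 to 2.20). At these nearer sites the intervals included 1, so a difference was not detectable at this depth, and the 4 intervals all overlapped one another.

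**Figure D2:**
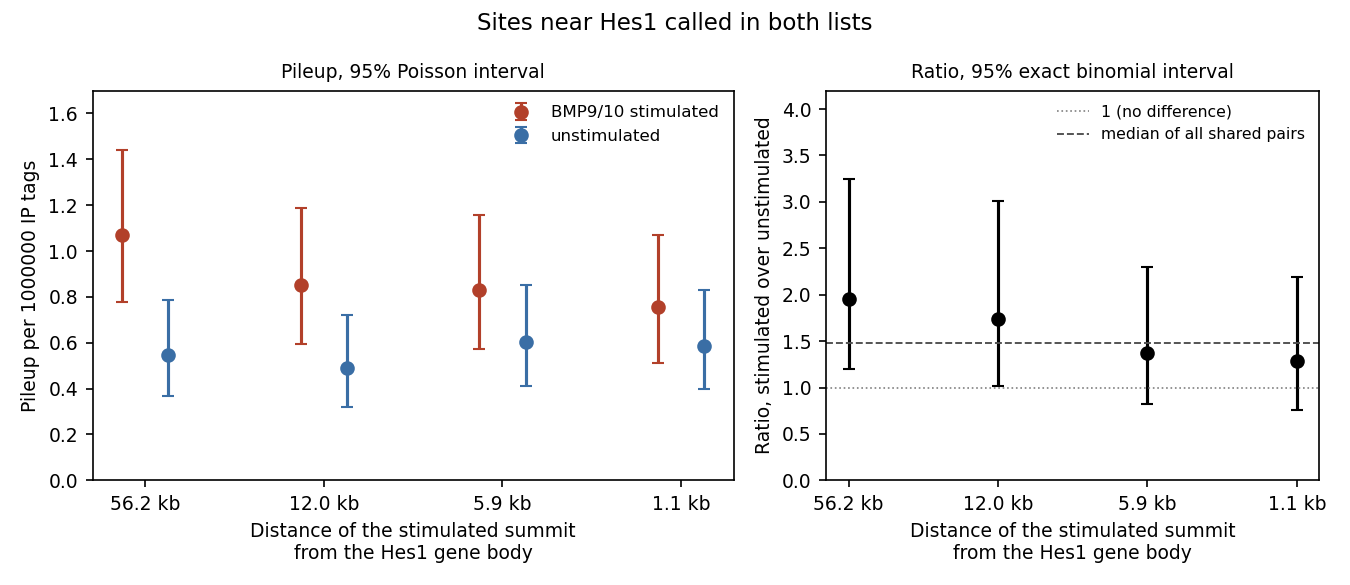
Left, pileup per 1000000 IP tags (vertical axis) at the 4 sites near Hes1 that both lists called, BMP9/10 stimulated left of unstimulated, with 95% Poisson intervals. Right, the ratio of stimulated to unstimulated pileup with exact binomial intervals; the ratios run from 1.29 to 1.96 and lie around the median of all shared pairs, 1.47 (dashed).

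A ratio above 1 was common to shared sites in general. Over 1078 shared pairs outside mitochondrial DNA the median ratio was 1.47 (interquartile range 1.29 to 1.68), and 36.6% of pairs had an interval above 1, against 2 of 4 at Hes1. The median of the Hes1 sites was 1.55. The site at 56.2 kb had a ratio above that of 94.3% of pairs and the site at 12.0 kb above 81.4%, while those at 5.86 kb and about 1 kb were above 34.2% and 20.8%. The counting intervals of all 4 sites included 1.47, so none was told apart from that genome-wide median at this depth. Divided by it, the 4 ratios became 1.33, 1.18, 0.930 and 0.875, in order of falling distance, with the nearer sites below 1 in value. Local background per tag moved with the first 2: its ratio, stimulated over unstimulated, was 1.25 at 56.2 kb and 1.45 at 12.0 kb, against 1.01 and 0.921 at the nearer sites, and its part in the pileup ratios was not tested. With the background subtracted the ratios were 2.05, 1.86, 1.46 and 1.36. As the ratio of the authors' fold enrichments, stimulated over unstimulated, they were 1.53, 1.20, 1.31 and 1.31, against a median of 1.40 over all pairs, so on that measure the site at 12.0 kb was the lowest of the 4 and only the site at 56.2 kb was above the median. Intervals cover counting error within pooled libraries only.

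Hey1 had 1 SMAD4 peak, after BMP9/10 (chr3:8667558-8667756, 199 bp), with its summit 0.604 kb above the gene body (chr3:8663359-8667038). By general knowledge of the locus Hey1 is transcribed towards lower coordinates, which places this peak upstream of its start. The pileup was 19, or 0.463 per 1000000 IP tags, and the fold enrichment 6.26, above 83.1% of the stimulated list, on a local background equal to the genome-wide level of 2.19 tags. The summit lay inside LOC115489673, a predicted protein-coding gene with no curated transcript, whose body shares 115 bp with the upper end of Hey1. That gene was therefore the nearest protein-coding one, and among genes with a curated transcript Hey1 was the nearest. On either side there was no further stimulated peak for 371 kb, and the closest unstimulated peak was 3087 kb away, nearest to Pex2. Hey1 thus differed from Hes1 in having a single nearby peak rather than a cluster.

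Hey2 (chr10:30832359-30842783) and Heyl (chr4:123233556-123249870) had no peak within 100 kb, nor within 200 kb. The closest stimulated summit to Hey2 was 204 kb away on its lower side (fold enrichment 5.44, nearest to Hint3). That to Heyl was 339 kb away, inside Macf1 (fold enrichment 5.0). The closest unstimulated summits were 3177 kb from Hey2, nearest to Rwdd1, and 543 kb from Heyl, inside Rhbdl2. No binding was called near these 2 genes at this depth, which does not show that there was none.

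For the stimulated peaks with no unstimulated counterpart, the pileup that a call in the unstimulated list would have needed was computed from its weakest called p (−log10 p of 6.03) and the stimulated local background scaled to its tags. For the peak 3.12 kb above Hes1 the needed level was 0.302 per 1000000 IP tags, against 0.804 measured after BMP9/10. In the same way, the peak inside Hes1 would have needed 0.321 against 0.682 measured, and the Hey1 peak 0.264 against 0.463. The peaks 2.08 kb below and 0.849 kb above Hes1 stood closest to their limits, with 0.390 measured against 0.359 needed and 0.365 against 0.321. Next came the peak 40.3 kb below Hes1, with 0.682 against 0.547. The measured level was above the needed one at all 7, as it was at all of the 3245 stimulated peaks without a counterpart outside mitochondrial DNA, since the unstimulated IP was the deeper one, so this comparison does not set these peaks apart. It leaves out counting error: for the peak at 2.08 kb unchanged coverage per tag gives an expected unstimulated pileup of 20.6 against 19 needed, and for that at 0.849 kb 19.4 against 17. The comparison also takes coverage per tag as equal in both lists, whereas the median ratio over all shared pairs was 1.47. The needed share of the measured level was 0.803 at 40.3 kb, 0.920 at 2.08 kb and 0.878 at 0.849 kb. At the other peaks it ran from 0.376 to 0.571. Unstimulated coverage lower by the median ratio would miss the needed level at 40.3, 2.08 and 0.849 kb and pass it at the others. This again leaves out counting error, and whether any peak follows the median ratio was not tested.

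**Figure D3:**
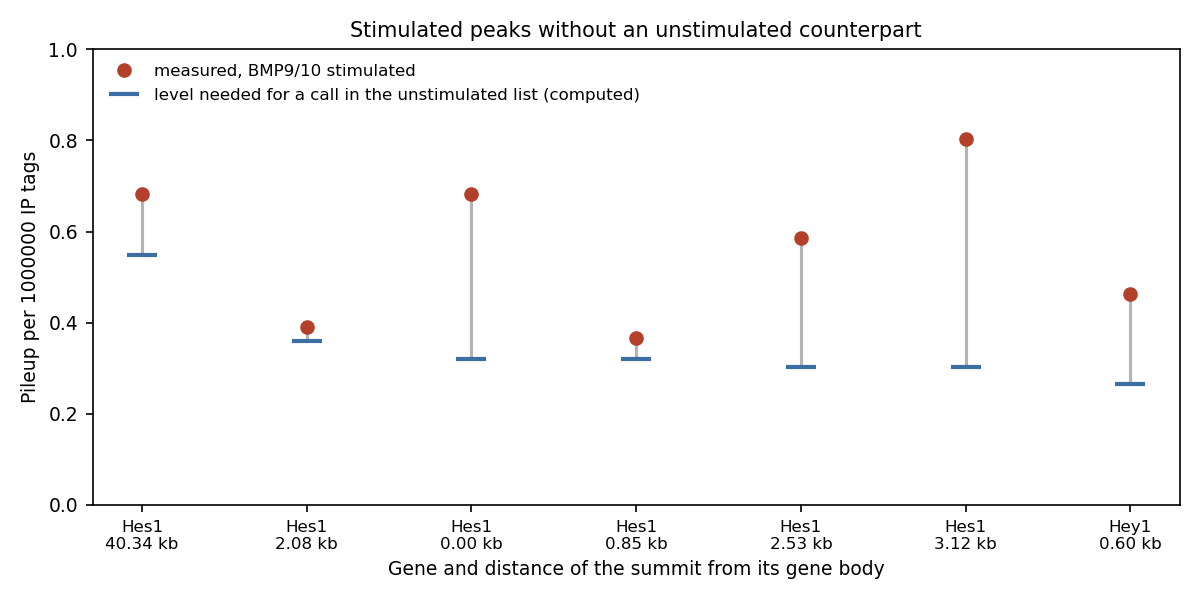
Pileup per 1000000 IP tags (vertical axis) of the 7 stimulated peaks near Hes1 and Hey1 with no unstimulated counterpart (red points), named by gene and distance of the summit from the gene body, and the computed level that a call in the unstimulated list would have needed (blue bars). The peaks inside Hes1 and 3.12 kb above it lie farthest above the needed level, those at 2.08 and 0.85 kb closest to it.

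Among all 21887 protein-coding genes, 36.5% had a stimulated summit inside or within 100 kb, as 2 of the 4 genes did, and 13.1% an unstimulated one, as 1 of the 4 did. The count of 10 at Hes1 was reached or passed by 7 genes (0.032%, Hes1 included). Among the others, named after their counts were seen, were Ctif with 13, Smad6 and Ergic1 with 11 each, and Smad7 and Lctl with 10 each. Windows of neighbouring genes share peaks, as those of Lctl and Smad6 or of Ctif and Smad7 can, and a longer gene has a longer window. In the unstimulated list the count of 5 at Hes1 was reached or passed by 23 genes (0.105%).

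Most of the stimulated Hes1 peaks lay close to the gene. Within 10 kb it had 7 stimulated peaks, a number that 3 genes reached (0.0137%), the other 2 being Frmd4a and Gse1, with gene bodies of 596394 and 352883 bp. Within 50 kb it had 9, and no other gene had as many. The unstimulated list had 2 peaks within 10 kb of Hes1, as did 99 genes or 0.452%, counting those with more, and 3 within 50 kb, as did 81 genes. At equal list length the number of calls at Hes1 was the same, but not the number of separate sites. With the stimulated list cut to the 1133 peaks of highest −log10 q, 5 peaks remained at Hes1, the same number as in the unstimulated list, and 18 genes (0.0822%) had 5 or more. Those 5 were the shared peaks at 56.2, 5.86 and about 1 kb, and, without a counterpart, the peak inside the gene and the one 3.12 kb above it. The 5 unstimulated calls include both of those at 56.2 kb, and became 4 when summits less than 1 kb apart were merged. None of the 5 stimulated peaks that remained had summits so close. The Hey1 peak was not in the shortened list.

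**Figure D4:**
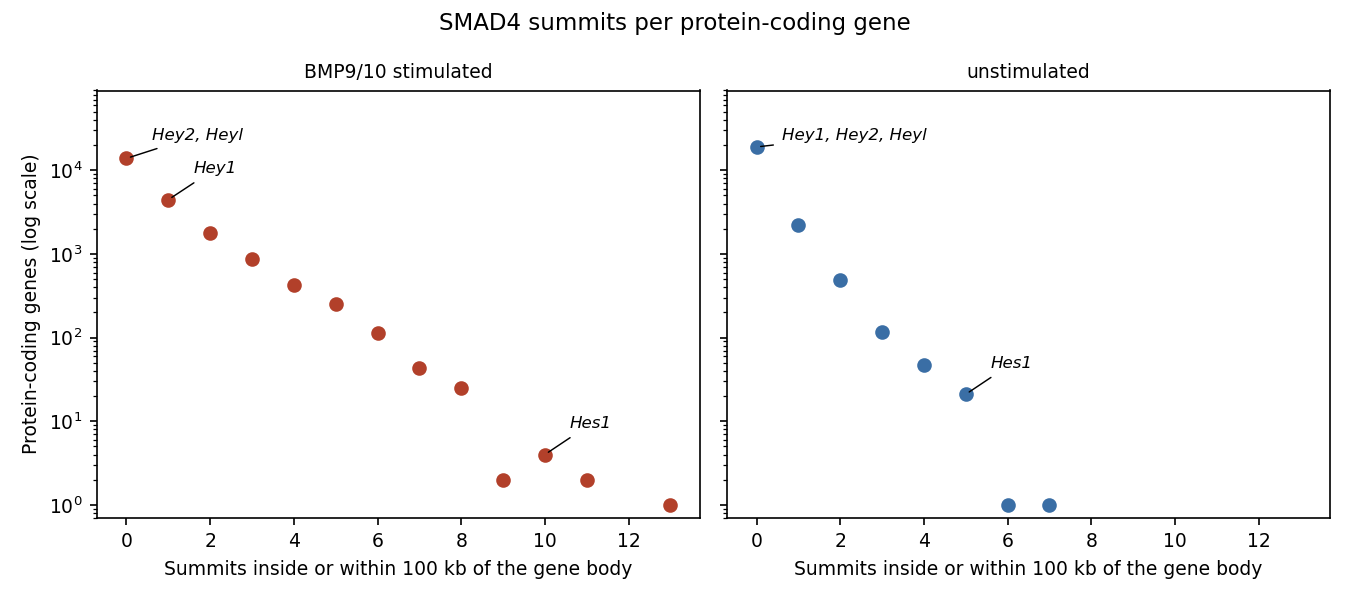
Number of protein-coding genes (vertical, log scale) by the number of SMAD4 summits inside or within 100 kb of the gene body (horizontal), for the stimulated (left) and the unstimulated list (right). Hes1 stands at 10 stimulated and 5 unstimulated summits, Hey1 at 1 and 0, and Hey2 and Heyl at 0 in both.

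Other genes of the pathway were counted in the same window. Their lists were chosen with earlier results of these data known, so their shares beside those of all genes are a description. Of the other Hes and related bHLH repressor genes, 3 of 8 had a stimulated peak (37.5%) and 0 an unstimulated one. They were Bhlhe40, with 2 peaks of which the stronger lay 0.517 kb from the gene (fold enrichment 4.74), Bhlhe41 with 2 and Hes7 with 1, whose strongest peaks were 49.8 and 82.8 kb away and nearest to Sspn and Ctc1. Hes2, Hes3, Hes5, Hes6 and Helt had none. The share of this group was close to the 36.5% of all genes.

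Of 26 Notch pathway genes 20 had a stimulated peak within 100 kb (76.9%) and 7 an unstimulated one (26.9%), against 36.5% and 13.1% of all protein-coding genes. The highest stimulated fold enrichments of the list were at Notch1, Adam17, Jag2 and Nrarp, and the other genes given here were chosen after their values were seen. Among the ligands, Jag2 had 1 stimulated peak of 8.0 and 1 unstimulated peak of 6.70, both 22.8 kb away and nearest to Brf1. Dll4, which marks arterial and tip endothelial cells, had 8 stimulated peaks (strongest fold enrichment 5.0, 11.4 kb away) and 0 unstimulated ones, and Jag1 had 1 stimulated peak (5.51, 0.874 kb away). Of the receptors, Notch1 had 6 stimulated and 4 unstimulated peaks, but the strongest (8.88 after BMP9/10, 6.02 without it) was nearest to Egfl7, 74.8 kb from Notch1, and Notch4, an endothelial receptor, had 2 stimulated peaks (5.25, 2.62 kb away). Rbpj had 1 stimulated peak inside its gene body (4.14). Adam17, a protease that can cleave Notch receptors, had the second highest fold enrichment of the list, 8.72 at 0.143 kb after BMP9/10 and 4.67 at 0.105 kb without it. Nrarp, a feedback inhibitor of Notch, and Lfng, a glycosyltransferase that modifies the receptors, had 4 stimulated peaks each (strongest 6.74 at 35.2 kb and 5.80 inside the gene).

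The Groucho corepressor genes had 3 of 5 members with a stimulated peak and 0 with an unstimulated one, against 36.5% and 13.1% of all protein-coding genes. Tle3 had a peak of 5.29 at 22.5 kb, while Tle2 and Tle5 were both counted through 1 shared peak of 4.91 that was nearest to Sirt6. For comparison, 11 of 12 BMP target genes had a stimulated (91.7%) and 8 an unstimulated peak (66.7%), beside the same 36.5% and 13.1% of all genes. The list of BMP targets, too, was chosen with earlier results of these data known. Hes1, with 10 stimulated and 5 unstimulated peaks, lay between Smad6, an inhibitory SMAD gene with 11 and 7, and Id3, an inhibitor of DNA binding with 8 and 4, while Smad7, another inhibitory SMAD gene, had 10 stimulated but 2 unstimulated peaks. The strongest stimulated peak of Hes1 (10.5) lay 56.2 kb away, and the strongest within 6 kb of it had 8.50. The value of 10.5 was close to those of Id1 (10.3 at 1.055 kb) and Smad7 (10.0 at 0.215 kb). It was below those of Id2 (12.6 at 2.835 kb), Id3 (12.5 at 2.638 kb), Smad6 (13.0 inside the gene) and Id4 (21.0 at 33.2 kb). The Hey1 peak (6.26) was close to the strongest of Gata2 (6.50), a transcription factor gene with 4 stimulated peaks. These are values side by side, with no test of a difference between genes, and Id1, Smad7 and Gata2 were chosen after their values were seen.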

How the data were processed

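SMAD4 ChIP-seq was made from MS1 cells in 2 conditions, each with 2 IP and 2 input libraries, and 1 peak list per condition was analysed. The authors called narrow peaks with MACS2 2.1.0.20140616 on merged libraries at a q limit of 0.01, keeping 1 tag per position, extending tags to 100 bp and randomly sampling the larger of IP and input down to the smaller, per the file headers. The input was the larger in both conditions. The build is mm10, per the submitters' processing notes, with the aligner not given in the sources used here. The authors deposited coverage as pileup, a signal not scaled to depth. Fold enrichment, as deposited, is a ratio of the pileup to the local background, each plus 1, and served here to rank and describe peaks. The deposited −log10 p and −log10 q compare IP with input. Deposited positions and widths are in bp, 1-based.

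The local background of each peak was worked back from these values. The Poisson tail it gives matched the deposited p within 1% (−log10 scale) at all 4333 and 1133 peaks. Gene bodies were those of RefSeq GRCm38.p6, the assembly behind mm10. Peaks overlapping by at least 1 bp were shared, and each was paired once by closest summit. Ratio intervals are exact binomial at 95% (scipy 1.17.1) and cover counting error only. Counting and pairing were tested on simulated data. The members and gene lists were chosen with earlier results of these data known. The text names the members, the nearest genes of their peaks and genes of the fixed lists, and says where a gene was chosen later. Tag lengths (140 bp stimulated, 146 bp unstimulated) exceeded the extension, and the caller's band width differed (200 and 300), per the file headers. Widths and pileups therefore describe pieces of fragments. Sequences of the peaks themselves were not analysed here.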

Additional observations from a re-analysis of the deposited data

How the results depend on the processing

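Of the values recomputed for the counts and the median ratio, 15 moved and the other 32 did not (for counts, at most 1.5 times). The counts at the 4 loci and at Hes1 were tallied separately although they differ by at most the 1 Hey1 peak. Most of the moved values therefore enter the tally under both. A −log10 q of at least 10 left 6 stimulated peaks at the 4 loci, all at Hes1, and 2 unstimulated ones. Cutting the stimulated list to the unstimulated length left 5, also all at Hes1. The unstimulated count, of 5 at Hes1 and in all, became 3 with a window of 50 kb, 8 with 200 kb and 3 without peaks under 150 bp. The 4 shared stimulated peaks became 1 with a reciprocal overlap of at least 50% and 7 with a window of 200 kb. The median pileup ratio of the shared Hes1 sites, 1.55, became 1.05 when divided by the median over all shared pairs. The smaller and larger windows, stricter limits and shorter list move counts by construction. Counting Hey1 by the nearest gene with a curated transcript, and requiring the p of the weakest unstimulated peak, were chosen after seeing the data and left 11 and 10 stimulated peaks at the 4 loci. No replicate could be left out, since libraries were merged before calling. No paired analysis was possible because neither list holds a value per library. Pileups of 15 to 44 tags limit the precision of every ratio.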

Other observations

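Beyond the window of 100 kb a second group of SMAD4 peaks lay above Hes1, between 117 and 120 kb from its gene body. All of them were inside the non-coding gene Gm26562, and the nearest protein-coding gene was Cpn2, 71.3 kb from the first. After BMP9/10 there were 4 peaks, with fold enrichments of 4.67, 4.60, 4.58 and 6.80 in order of coordinate. Without added ligand there were 3, with 3.7, 6.59 and 4.50. All but one of the stimulated peaks overlapped an unstimulated one, and the exception, of 215 bp (fold enrichment 4.58), had no counterpart. At the second site the fold enrichment was lower after BMP9/10 (4.60 against 6.59), while the pileup per 1000000 IP tags was 1.10 after BMP9/10 and 1.04 without it. The site farthest from Hes1 had the highest coverage of the group in the stimulated list, 1.63 against 1.00 in the unstimulated one.

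On the other side, 1 stimulated peak lay 119 kb below Hes1 (fold enrichment 5.48, 335 bp) with Hes1 as its nearest protein-coding gene and no unstimulated counterpart. With these peaks Hes1 had 15 stimulated and 8 unstimulated summits within 200 kb, and no other protein-coding gene had as many in either list. Whether the groups on both sides of Hes1 act on it cannot be read from peak positions.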
